A study of Mus musculus with 21 samples.

Results

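Skeletal muscle that is wasting, denervated or under stress switches on a recognisable set of genes, and 10 of these were followed here through muscle injury with and without regulatory T cells. They were Trim63, Fbxo32, Klhl38, Foxo1, Foxo3, Gadd45a, Depp1, Bnip3 and the metallothionein genes Mt1 and Mt2. The genes were picked by name, with earlier results of these data known. They were read from the table of array intensities through the probe annotation, using probe sets with a single gene symbol. For a gene with several, the one with the highest mean was used. All 10 were found among the 19752 genes of the table, and all 10 were among the 13278 genes that passed the filter on low values. Bnip3 was the member with 2 probe sets.

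The samples were whole tibialis anterior muscles, from the front of the lower leg, of male C57BL/6 mice aged 8 weeks. Foxp3-DTR+ mice carry the diphtheria toxin receptor driven from Foxp3, the gene that defines regulatory T cells, so that the toxin removes these cells, and Foxp3-DTR- mice lack the receptor. In every group compared, both genotypes were dosed with diphtheria toxin on alternate days starting at day 0, so the toxin itself was shared. By the labels cardiotoxin, a snake venom component that kills muscle fibres, was given at day 0. The sample titles divide muscles into CTx and xINJ. The other labels describe both kinds as injured, so xINJ stands here for a title and not for a known treatment. There were 3 DTR- samples each of CTx and xINJ muscle at day 4 and at day 8. Of DTR+ muscle there were 2 samples of CTx at day 4, 3 of CTx at day 8 and 2 of xINJ at day 8. A further xINJ sample of day 4 and a control sample of day 0 stood alone in their groups and entered no test. Whether samples of a group came from separate mice is not in the labels. Every p-value therefore reflects the spread among these samples alone, which may be technical.

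Trim63 (MuRF1) and Fbxo32 (atrogin-1) encode muscle ubiquitin ligases that mark proteins of the fibre for the proteasome, and their transcripts rise in nearly every form of muscle wasting. Both are driven by FoxO transcription factors, which insulin and growth factor signalling keeps out of the nucleus and which glucocorticoids, fasting and denervation release. Gadd45a and Depp1 are stress-inducible FoxO-responsive genes, Bnip3 is a receptor for the removal of mitochondria by autophagy, and Klhl38 belongs to the kelch-like family. Metallothioneins bind zinc and copper, and their genes are induced by metals, glucocorticoids and inflammatory signals.

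Median intensity per array ran from 133.05 to 159.53, and precision is limited by how few arrays each group has. The muscle fibre genes Ckm (log2 12.52 to 14.05) and Acta1 (13.63 to 14.16) were bright in every sample. Foxp3 itself read 6.27 to 6.95 on the log2 scale in all 21 samples, around the 40th percentile of the arrays (6.62 to 6.84), so the loss of regulatory T cells could not be read from it. In 2 DTR- samples there was reason for care. CTx day 4 replicate 1 had the lowest mature fibre level of all samples (a mean log2 of 12.38 over 13 markers), and xINJ day 4 replicate 1 carries a time label of 8 days against a title of day 4. For the comparisons that use them, some of the members' results are also given with both left out.

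For most members the level was highest in DTR+ xINJ muscle at day 8, a group of 2 samples. Among the 7 groups with more than 1 sample, this group had the highest mean for 8 of the 10 genes, all but Mt1 and Mt2. For those 8 each of its samples lay above every sample of the next group. The share of all tested genes with such an order was not counted, and the members were chosen with earlier results known. The order is therefore not shown to be particular to them. Further down the order, neighbouring groups mostly overlapped: over all 10 genes, 15 of 60 neighbouring pairs of groups did not. This too was not counted over all tested genes. For Fbxo32 and Klhl38 the second place, DTR- xINJ muscle at day 8, was also clear of the third. Mt1 and Mt2 had another order, with the 4 CTx groups and DTR+ xINJ muscle at day 8 at the top, each overlapping its neighbour in the order, and DTR- xINJ muscle at both days clear below them. The single sample at day 0 lay near the DTR- xINJ samples of day 4. Its log2 values were 10.34 for Trim63, 11.45 for Fbxo32 and 10.40 for Mt2. Over 6 regenerating fibre markers its mean log2 level was 7.47. Muscle titled xINJ stood at 7.55 (DTR-) and 7.68 (DTR+) at day 8, and at 8.16 (DTR-) and 9.14 (1 DTR+ sample) at day 4. The CTx groups stood at 10.26 to 11.80. Over 7 macrophage markers the day 0 sample stood at 7.87, the xINJ groups at 7.23 to 8.80 and the CTx groups at 9.54 to 11.42. What these levels say of the treatment of xINJ muscle was not tested.

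**Figure D1:**
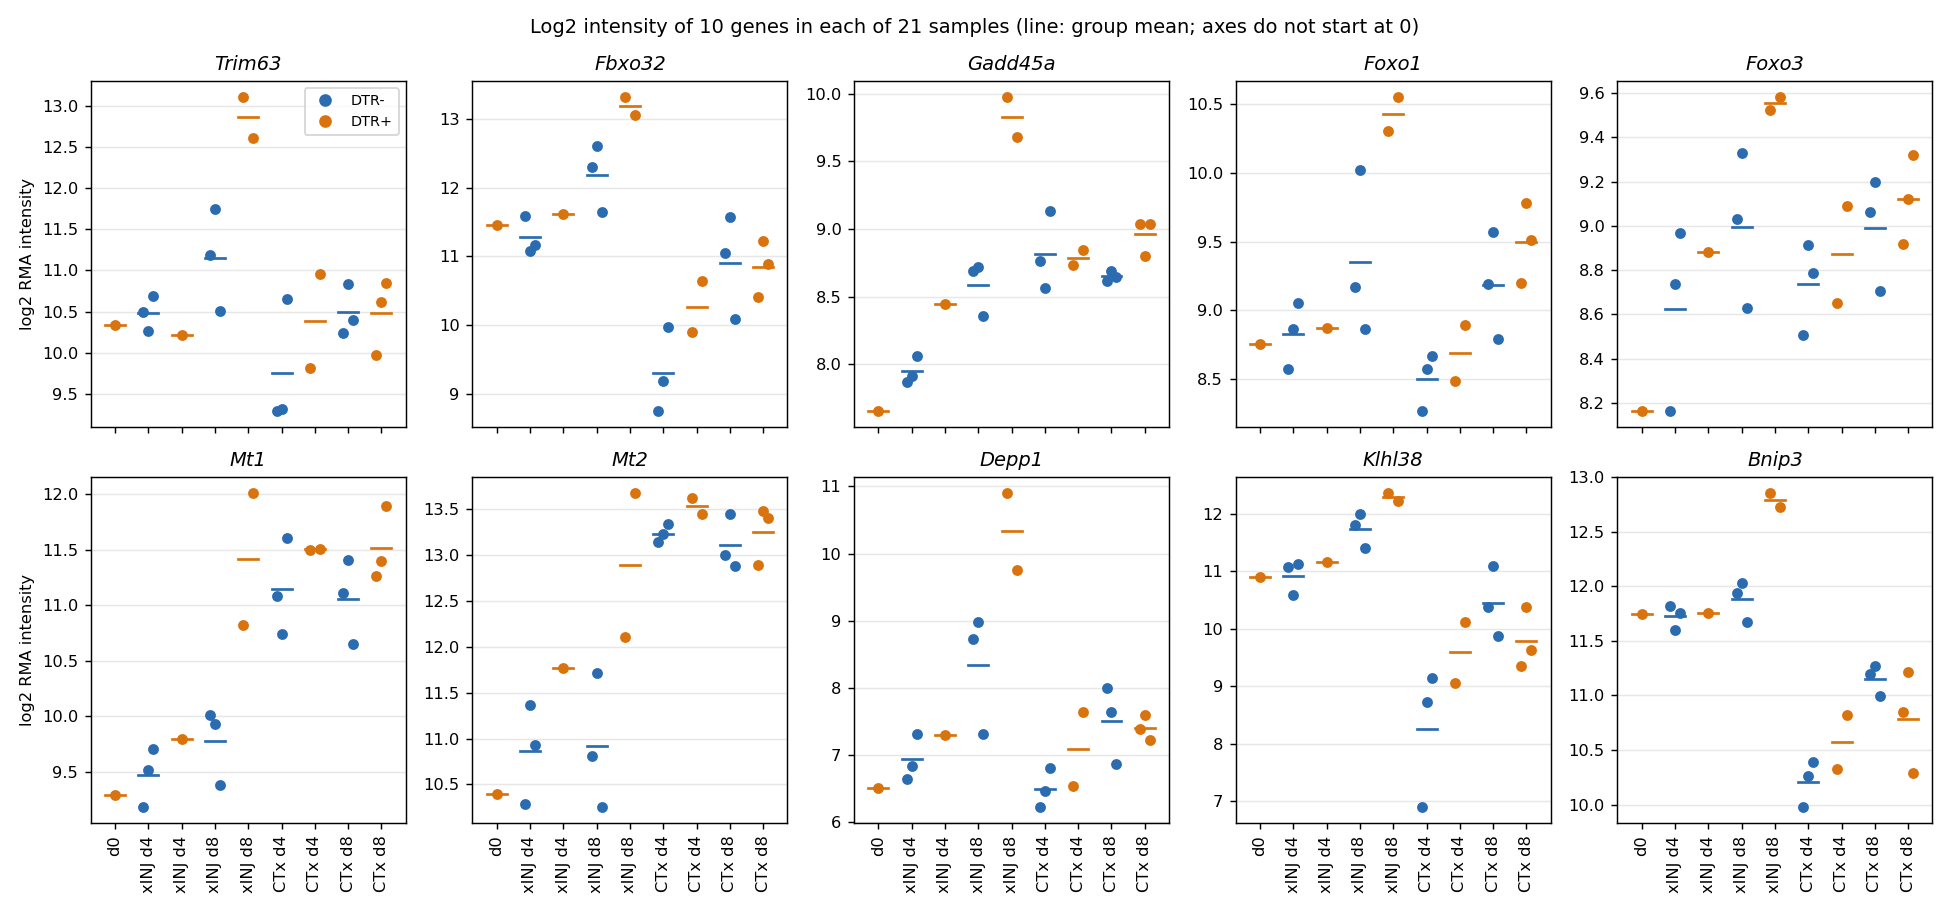
Log2 array intensity (vertical axis) of each gene in each of the 21 samples, grouped along the horizontal axis by muscle and day, with DTR- samples in blue and DTR+ samples in orange and a line at each group mean. In xINJ muscle at day 8 both DTR+ samples lie above all 3 DTR- samples for each of the 10 genes.

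The comparison of genotypes in xINJ muscle at day 8 asked how loss of regulatory T cells changes that muscle. In it 7 of the 10 members were higher in DTR+ samples by a limma adjusted p under 0.05 and none was lower, against a background of 2.61% of all tested genes called in either direction and 1.81% called higher. The members' median log2 fold change was 1.16, and that of all tested genes was -0.01. Because the members were chosen with earlier results of these data known, these shares and medians are a description and not independent support. For all 10 members both DTR+ samples exceeded all 3 DTR- samples, which held for 15.4% of all tested genes. In whole muscle, a change in RNA per cell and a change in the number of cells of a type cannot be told apart.

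Of the ubiquitin ligases, Trim63 stood at 13.11 and 12.60 in the DTR+ xINJ samples of day 8 and at 11.19, 11.75 and 10.51 in the DTR- samples, as log2 intensity. The lower DTR+ sample was clear of the highest DTR- sample, and the log2 fold change of 1.70 ± 0.41 (SE; 3.26-fold, limma adjusted p = 0.0294) passed the test. Fbxo32 stood at 13.33 and 13.06 against 12.31, 12.61 and 11.64, in the same order of genotypes. Its log2 fold change of 1.01 ± 0.39 had an adjusted p of 0.251 and did not pass. Klhl38, the chromosome neighbour of Fbxo32, stood at 12.37 and 12.23 against 11.80, 11.99 and 11.40. Its groups were close, with a log2 fold change of 0.57 ± 0.49 and an adjusted p of 0.786. The sequence before the start of Trim63 is shown because it holds 2 of the motifs searched side by side. From RefSeq on GRCm38.p6 these are the 250 bases before the start at chr4:134314870-134315119 on the plus strand, with capitals marking the hexamer TGTTCT, a core of glucocorticoid receptor elements, and the FoxO motif TGTTTAC.
Trim63: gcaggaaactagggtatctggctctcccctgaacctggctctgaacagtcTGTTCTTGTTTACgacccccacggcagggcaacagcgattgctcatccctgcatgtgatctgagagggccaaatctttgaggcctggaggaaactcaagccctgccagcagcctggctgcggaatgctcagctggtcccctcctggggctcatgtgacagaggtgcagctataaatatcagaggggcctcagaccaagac
The hexamer spans bases -200 to -195 and the FoxO motif bases -194 to -188 from the start, so they abut without overlap. Among 32851 mouse promoters of this length, searched on both strands, 3.17% held TGTTTAC and 16.1% held TGTTCT. Promoter sequences were at hand for 8 of the 10 members, and none of the other 7 held either motif in this window. A match describes letters only.

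Of the FoxO factors, Foxo1 stood at 10.30 and 10.55 in the DTR+ samples and at 9.17, 10.02 and 8.86 in the DTR- samples. DTR- replicate 2 came close to the DTR+ samples, and the log2 fold change of 1.08 ± 0.28 had an adjusted p of 0.0489. Foxo3 stood at 9.53 and 9.58 against 9.03, 9.33 and 8.63, and its log2 fold change of 0.56 ± 0.24 did not pass (adjusted p = 0.313). The stress-inducible members differed more. Gadd45a stood at 9.98 and 9.68 against 8.69, 8.72 and 8.36, a gap wider than the spread within either genotype. Its log2 fold change was 1.24 ± 0.17 with an adjusted p of 0.000351. Depp1 stood at 10.91 and 9.75 against 8.73, 8.98 and 7.32, with wide spread in both genotypes. Its log2 fold change of 1.99 ± 0.44 (3.96-fold, adjusted p = 0.0175) ranked 24 from the top among all tested genes.

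The metallothioneins rose together. Mt1 stood at 10.82 and 12.01 in the DTR+ samples and at 10.01, 9.94 and 9.38 in the DTR- samples, a log2 fold change of 1.64 ± 0.32 (3.12-fold, adjusted p = 0.00713). Mt2 stood at 12.11 and 13.68 against 10.81, 11.71 and 10.26, a log2 fold change of 1.97 ± 0.40 (3.91-fold, adjusted p = 0.0104). In both genes DTR+ replicate 2 was more than a log2 unit above DTR+ replicate 1, while replicate 1 was the higher for Trim63, Gadd45a, Depp1 and Bnip3. Mt1 and Mt2 are neighbours on chromosome 8. The region before the start of Mt2 is shown because it carries several copies of the metal response element core, the letters TGCACNC or TGCGCNC, which the zinc sensor MTF-1 recognises. These are the 250 bases before the start from RefSeq on GRCm38.p6, at chr8:94172368-94172617 on the plus strand, with the matches in capitals.
Mt2: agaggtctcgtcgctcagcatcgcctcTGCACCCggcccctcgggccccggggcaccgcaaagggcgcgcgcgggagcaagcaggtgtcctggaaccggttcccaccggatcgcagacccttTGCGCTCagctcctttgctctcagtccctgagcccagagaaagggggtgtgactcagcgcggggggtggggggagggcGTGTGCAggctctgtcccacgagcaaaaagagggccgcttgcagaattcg
The 3 matches lie at bases -223 to -217 and -128 to -122 on the plus strand and at bases -50 to -44 on the minus strand. At least 1 match was found in 21.4% of promoters and 3 or more in 1.26%. The entry for Mt1 held 1 match, at bases -23 to -17, but 206 of its 250 bases lie inside the gene's own record, so that window follows a start within the gene.

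Bnip3 stood at 12.86 and 12.73 in the DTR+ samples and at 11.94, 12.03 and 11.67 in the DTR- samples. The genotypes did not overlap, and the log2 fold change was 0.91 ± 0.22 (1.88-fold, adjusted p = 0.0304). The other Bnip3 probe set gave 0.99 ± 0.19 (adjusted p = 0.00565). The gene is shown with its upstream sequence because it was the member with more than 1 match to ACGTG, the core of the element through which hypoxia-inducible factors act. The 250 bases before its start, from RefSeq on GRCm38.p6 at chr7:138909507-138909756 on the minus strand, hold it once on each strand, and capitals mark the joined matches.
Bnip3: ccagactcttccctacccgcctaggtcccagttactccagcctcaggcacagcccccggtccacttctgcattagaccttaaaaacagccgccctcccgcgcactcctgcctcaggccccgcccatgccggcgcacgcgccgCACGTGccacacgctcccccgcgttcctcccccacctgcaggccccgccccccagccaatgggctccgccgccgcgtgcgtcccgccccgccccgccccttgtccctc
The matches overlap at bases -108 to -104 and -107 to -103, since the letters read alike on both strands, and count as 1 place. ACGTG was found in 16.6% of promoters and at least 2 matches in 6.81%, a count in which such overlaps are included.

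Single samples carried much of this comparison. Without DTR+ replicate 1 the count of members called fell from 7 to 3, and without DTR+ replicate 2 to 2, each leaving 1 DTR+ sample that is assumed to vary like the other groups. Without DTR- replicate 1 it was 4, without DTR- replicate 3 it was 2, and without DTR- replicate 2 it stayed at 7. DTR- replicate 3 was the lowest of its group for 10 of 10 members and replicate 2 the highest for 9. Gadd45a passed in each of the 14 alternatives run for it. Mt1 fell to a log2 fold change of 1.05 (adjusted p = 0.213) and Mt2 to 1.18 (0.281) without DTR+ replicate 2. Depp1 fell to 1.41 (0.379) without DTR+ replicate 1. Trim63 and Bnip3 lost the call without DTR+ replicate 1, DTR+ replicate 2, DTR- replicate 1 or DTR- replicate 3 in turn. Foxo1 lost it in those 4 cases and in 4 other alternatives, and Mt2 and Depp1 lost it without DTR- replicate 3 too. The log2 fold change of each member stayed above 0 in all of its 14 alternatives (15 for Bnip3).

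The other genes of these pathways are given by list for the same comparison, where 1.81% of all tested genes were called higher. The lists too were chosen with earlier results of these data known. Of 31 proteasome subunits 7 rose and none fell, with a median log2 fold change of 0.51 and all 31 above 0. Psma7 (0.97 ± 0.20, adjusted p = 0.0122) is a subunit of the catalytic core, and Psmd11 (0.81 ± 0.17, 0.0123), Psmd8 (0.73 ± 0.14, 0.00798) and Psmc4 (0.81 ± 0.17, 0.0132) belong to the regulatory particle that receives ubiquitin-tagged proteins. The 16 other ubiquitin ligases and cofactors gave 0 calls and a median of -0.03. Of 17 FoxO-driven and fasting genes 2 rose: the stress sensor Sesn1 (1.18 ± 0.24, 0.00877) and Eif4ebp1 (1.17 ± 0.27, 0.0214), a brake on translation. Of 19 autophagy and mitophagy genes 2 rose, the lysosomal protease Ctsl (0.92 ± 0.18, 0.00713) and the autophagosome protein gene Map1lc3b (0.68 ± 0.17, 0.0440). None of 16 glucocorticoid-induced genes passed, with a median of 0.41, and the receptor-driven gene Fkbp5 stood at 1.16 ± 0.41 with an adjusted p of 0.181.

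Of 12 denervation genes 1 rose, the transcription factor gene Runx1 (1.08 ± 0.23, adjusted p = 0.0123), and the median was 0.04. The acetylcholine receptor subunit gene Chrna1, a standard sign of lost nerve contact, stood at 0.01 ± 0.17. Chrna1, like Fkbp5 above and Mtf1 below, was named after its value was seen. Of 16 metal handling genes 2 rose, the zinc importer gene Slc39a14 (1.45 ± 0.21, 0.000575) and the haem-degrading enzyme gene Hmox1 (1.54 ± 0.32, 0.0122), while Mtf1, which encodes the metal sensor, stood at -0.17 ± 0.25. Of 12 acute phase and interleukin 6 family genes 3 rose: Serpina3n (1.96 ± 0.38, 0.00710), the iron-scavenger gene Lcn2 (1.51 ± 0.38, 0.0399) and the interleukin 6 receptor gene Il6ra (1.53 ± 0.23, 0.000699). Of 11 hypoxia-induced genes 1 rose, Egln3 (1.23 ± 0.26, 0.0138), and the median was -0.06. With each sample left out in turn the count of proteasome subunits higher ran from 0 to 6, that of autophagy genes from 0 to 2, that of FoxO-driven genes from 0 to 2, that of metal handling genes from 1 to 2, that of acute phase genes from 1 to 3, and those of denervation and hypoxia-induced genes from 0 to 1. Slc39a14 and Il6ra were called in all 5 of these fits, Runx1 in 1, Egln3 in 2 and Hmox1 in 3, with log2 fold changes of 0.82 to 2.26 for Hmox1.

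**Figure D2:**
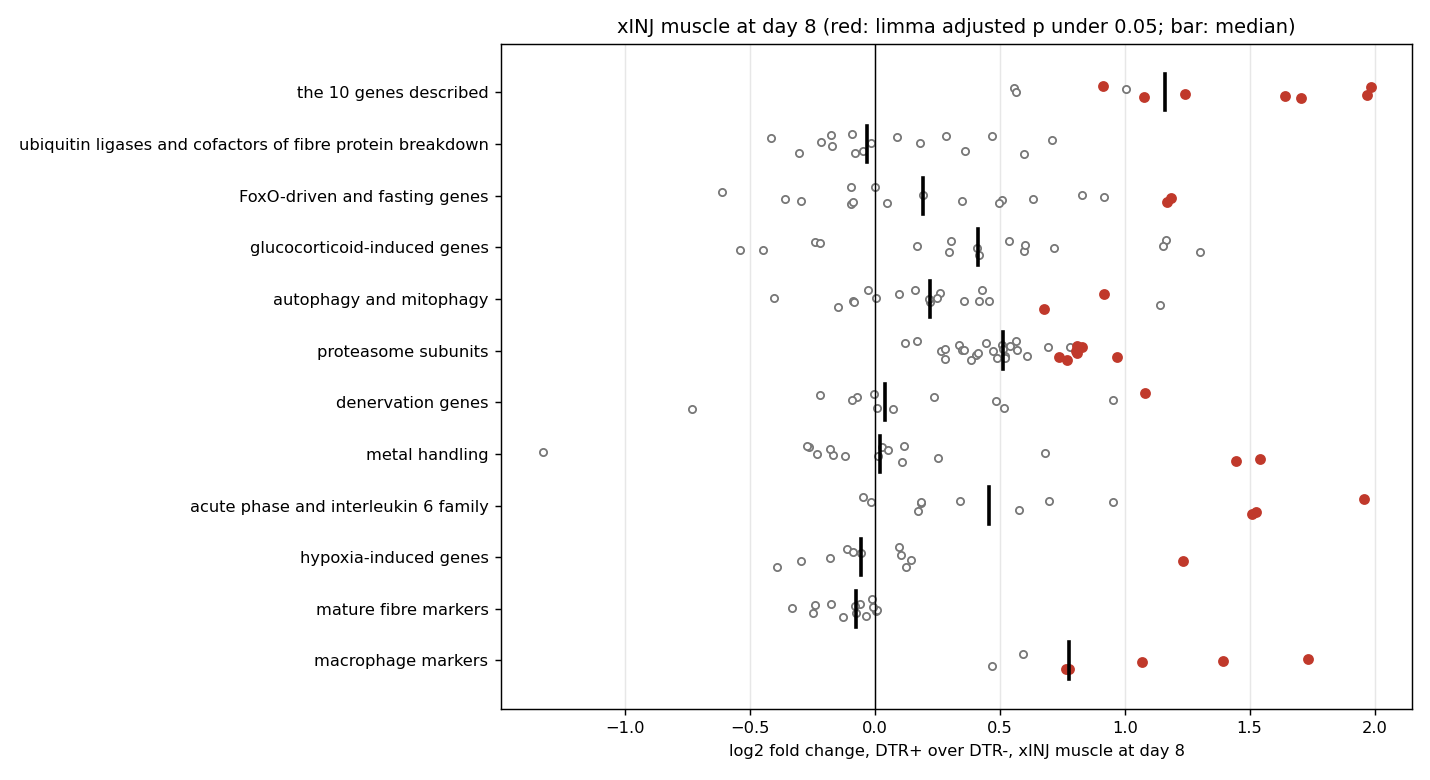
Log2 fold change of DTR+ over DTR- samples in xINJ muscle at day 8 (horizontal axis) for the 10 members, 9 other gene lists and 2 marker lists, 1 point per gene, red where the limma adjusted p was under 0.05, with a bar at each list median. The members' median is 1.16 and that of the proteasome subunits 0.51, while the mature fibre markers lie near 0.

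Markers of other cells moved with this comparison in part. Of 7 macrophage markers 5 rose (median log2 fold change 0.78), and their mean log2 level was 8.03 to 8.38 in the DTR+ samples and 7.05 to 7.35 in the DTR- samples. With each sample left out in turn 2 to 4 of them were called. Their part in the members' differences was not tested. None of 13 mature fibre markers was called. Their mean level was slightly lower in DTR+ samples without overlap, at 13.37 to 13.45 against 13.50 to 13.53 in DTR- samples. None of 4 T cell, 2 neutrophil, 6 fibroblast, 5 endothelial, 4 adipocyte, 3 Schwann cell, 2 red blood cell and 6 regenerating fibre markers was called. Mean levels still lay apart for fibroblast markers, at 8.83 to 9.13 in DTR+ against 9.36 to 9.41 in DTR- samples. They also did for T cell (6.36 to 6.41 against 5.94 to 6.16) and neutrophil markers (5.83 to 6.28 against 5.57 to 5.80), both below the 40th percentile of the arrays. Levels of the endothelial, adipocyte, Schwann cell, red blood cell and regenerating fibre markers overlapped. The part of all these levels, mature fibre included, was not tested.

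In CTx muscle no member was called between the genotypes in the main fit. At day 4 the log2 fold change was above 0 for 9 of 10 members, with a median of 0.36 against 0.02 over all tested genes. At day 4, 0 of 10 passed, in a comparison where 0.00753% of tested genes (1 gene) were called. The share of all tested genes with an unadjusted p under 0.05 was not counted. Of the members 2 had an unadjusted p under 0.05. These were Klhl38, at 9.06 and 10.13 in DTR+ against 6.91, 8.73 and 9.16 in DTR- samples, and Fbxo32, at 9.90 and 10.64 against 8.75, 9.18 and 9.97. In both genes the groups overlapped, though their log2 fold changes ranked 4 (Klhl38) and 29 (Fbxo32) from the top among all tested genes. Mt2 was the 1 member with both DTR+ samples above all DTR- samples, as were 3.53% of tested genes. The log2 fold changes were 1.33 ± 0.49 for Klhl38 and 0.97 ± 0.39 for Fbxo32 (limma adjusted p = 1.00 for both), and without the pair of DTR- samples noted above they were 0.65 and 0.69. DTR- replicate 1 had the lowest value of both genes, and it also had the lowest mature fibre level. The part of that level in these values was not tested.

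At day 8 in CTx muscle 0 of 10 members passed, against 3.68% of tested genes, and none had an unadjusted p under 0.05. Gadd45a came nearest, at 9.04, 8.80 and 9.04 in DTR+ against 8.62, 8.69 and 8.65 in DTR- samples. It was the 1 member whose DTR+ samples all exceeded the DTR- samples (9.78% of tested genes), by a log2 fold change of 0.31 ± 0.15 (adjusted p = 0.397). Trim63 differed by -0.01 with a 95% interval of -0.78 to 0.75, and Fbxo32 by -0.06 with an interval of -0.80 to 0.68, so these samples leave room for a change of that size in either direction. Mt1 stood at 0.46 ± 0.28 and Mt2 at 0.14 ± 0.36. Bnip3 differed by -0.37 ± 0.20 on the main probe set and by 0.13 ± 0.17 on the other, the probe sets being furthest apart in DTR+ replicate 3 (10.29 against 11.03). In this comparison 4 of 4 T cell markers and 4 of 7 macrophage markers rose and 2 of 5 endothelial markers fell. With each sample left out in turn these counts ran from 3 to 4, from 2 to 4 and from 0 to 1.

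**Figure D3:**
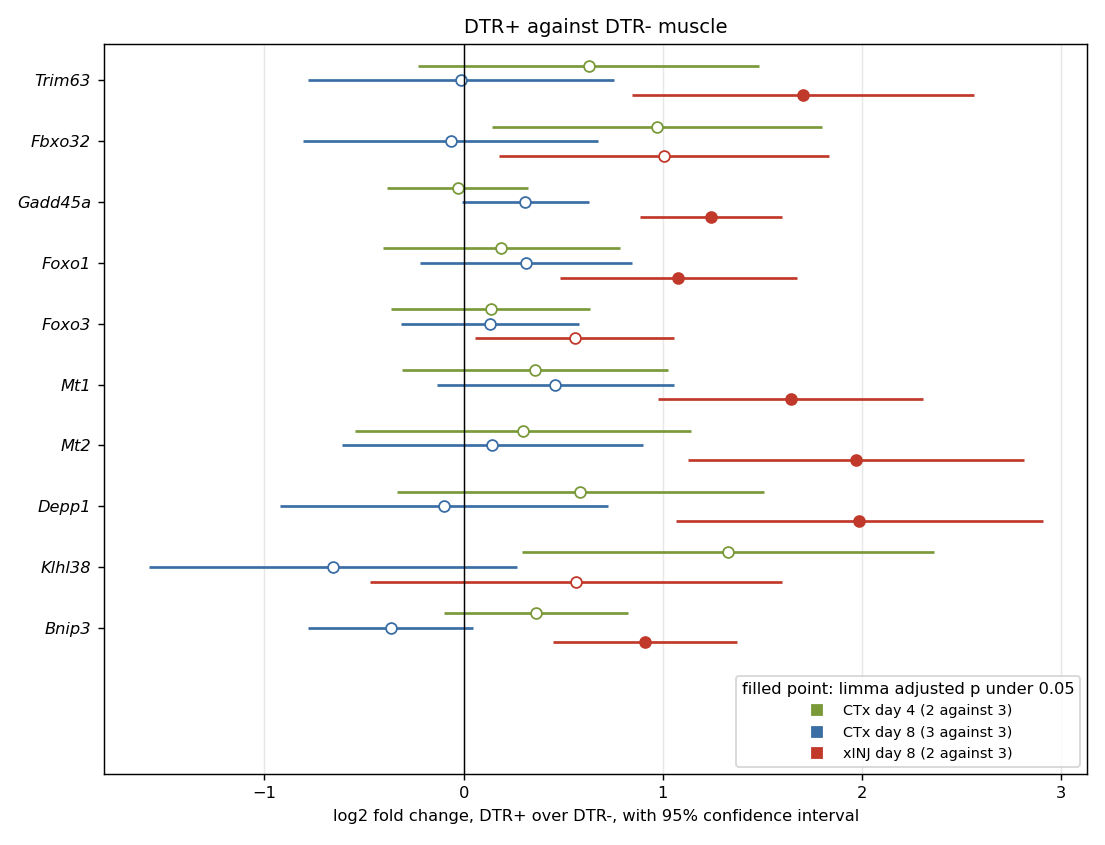
Log2 fold change of DTR+ over DTR- samples (horizontal axis) with its 95% confidence interval for each gene, in CTx muscle at day 4 (green), CTx muscle at day 8 (blue) and xINJ muscle at day 8 (red); filled points had a limma adjusted p under 0.05. All 7 filled points belong to xINJ muscle at day 8.

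The difference between these genotype effects was tested directly. The effect in CTx minus that in xINJ muscle at day 8 was below 0 for 10 of 10 members. The share of all tested genes below 0 was not counted. The members' median was -1.20 on the log2 scale, and that of all tested genes was 0.02. Its xINJ samples are those of the genotype comparison above, so the 2 results are not independent. In this test 0 of 10 passed, against 0.233% of tested genes, and 6 had an unadjusted p under 0.05. The share of all tested genes under that unadjusted p was not counted, for this test or for the change between days below. Bnip3 (-1.28 ± 0.30, limma adjusted p = 0.101), Gadd45a (-0.93 ± 0.23, 0.124) and Depp1 (-2.08 ± 0.59, 0.215) came nearest. Bnip3 passed without DTR+ CTx replicate 2 (-1.50, adjusted p = 0.0365), and on its other probe set the value was -0.85 (0.242). Mt2 stood at -1.82 ± 0.54 and Trim63 at -1.72 ± 0.55. The change of the genotype effect in CTx muscle from day 4 to day 8 also gave 0 of 10, against 0.587%, with 2 under an unadjusted p of 0.05, Klhl38 (-1.99 ± 0.66, adjusted p = 0.214) and Bnip3 (-0.73 ± 0.30, 0.347). With both doubtful samples left out Klhl38 stood at -1.31 (0.445) and Bnip3 at -0.61 (0.741), and the other Bnip3 probe set gave -0.08 (0.969).

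Setting CTx against xINJ samples within DTR- mice gave the members' pattern where regulatory T cells had not been removed. At day 4 the members split, with 3 higher and 3 lower in CTx muscle. Of all tested genes 46.6% were called, 26.1% higher and 20.5% lower, so 6 of 10 is near the background. Mt2 stood at 13.14, 13.22 and 13.33 in CTx and at 10.28, 11.37 and 10.93 in xINJ samples, a log2 fold change of 2.37 ± 0.36 (5.18-fold, limma adjusted p = 2.5e-05). Mt1 rose by 1.67 ± 0.28 (8.27e-05), with CTx samples at 10.74 to 11.60 and xINJ samples at 9.19 to 9.71. Gadd45a rose by 0.87 ± 0.15 (0.000109), from 7.87 to 8.06 in xINJ to 8.56 to 9.13 in CTx samples. For each of the 3 genes every CTx sample was above every xINJ sample, as for 28.6% of tested genes.

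In the same comparison Klhl38, Fbxo32 and Bnip3 were lower in CTx muscle, with every CTx sample below every xINJ sample, as for 25.7% of tested genes. Klhl38 stood at 6.91, 8.73 and 9.16 against 11.07, 10.58 and 11.13, a log2 fold change of -2.66 ± 0.44 (adjusted p = 6.35e-05). Fbxo32 stood at 8.75, 9.18 and 9.97 against 11.59, 11.08 and 11.17 (-1.98 ± 0.35, 0.000139), and Bnip3 at 9.98 to 10.39 against 11.60 to 11.82 (-1.51 ± 0.20, 4.35e-06). Trim63, the other ubiquitin ligase gene, stood at 9.29, 9.32 and 10.65 against 10.49, 10.27 and 10.69, where CTx replicate 3 was within the xINJ range. Its log2 fold change of -0.73 ± 0.37 did not pass (adjusted p = 0.111), and without that sample it was -1.18 (0.0103). Foxo1 (-0.33), Foxo3 (0.11) and Depp1 (-0.43) did not pass either, and Depp1 was near or below the 40th percentile of the arrays in this CTx group. Mature fibre markers fell for 11 of 13 in this comparison and macrophage markers rose for 7 of 7. The part of these shifts in the members' differences was not tested. With the pair of doubtful samples left out, 6 of 10 members were called, among them Klhl38 at -1.91 (0.000693) and Mt2 at 2.13 (0.000558).

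Around the members at day 4, 9 of 12 denervation genes rose in CTx muscle, led by Chrng (4.11 ± 0.20, adjusted p = 3.75e-11), Chrna1 (3.02 ± 0.15, 4.83e-11), Myog (3.71 ± 0.19, 6.08e-11) and Ncam1 (3.17 ± 0.19, 3.18e-10), and 1 fell. These encode subunits of the fetal acetylcholine receptor, a myogenic factor and an adhesion molecule, all of which newly formed fibres also express, and Myog and Chrng are on the list of regenerating fibre markers too, of which 6 of 6 rose. Of 16 glucocorticoid-induced genes 9 fell and none rose, among them Mstn (-1.97 ± 0.29), the brake on muscle growth, and Klf15 (-1.40 ± 0.21), Klf9 (-1.70 ± 0.25) and Zbtb16 (-2.14 ± 0.38). Of 16 ubiquitin ligases and cofactors 6 fell and 1 rose, with Fbxo40 at -1.88 ± 0.23 and Fbxo31 at -1.87 ± 0.26. Of 16 metal handling genes 8 rose and 1 fell, with Hmox1 at 1.76 ± 0.29 and the ferritin gene Ftl1 at 1.74 ± 0.19, and 9 of 12 acute phase genes rose, with Timp1 at 3.26 ± 0.22 and Serpina3n at 2.53 ± 0.34. Proteasome subunits showed 3 higher and 2 lower of 31. In this comparison 26.1% of all tested genes were called higher and 20.5% lower, so the calls for ubiquitin ligases and cofactors are near the background.

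At day 8 in DTR- mice the metallothioneins were again higher in CTx muscle, and the xINJ samples here are the DTR- samples of the genotype comparison above. Mt2 stood at 13.00, 13.44 and 12.88 against 10.81, 11.71 and 10.26 (2.18 ± 0.36, adjusted p = 0.000321), and Mt1 at 11.11, 11.41 and 10.65 against 10.01, 9.94 and 9.38 (1.28 ± 0.28, 0.00437). Fbxo32 (-1.28 ± 0.35, 0.0194) and Bnip3 (-0.73 ± 0.20, 0.0169) were lower, so that 4 of 10 members passed, against 13.5% of tested genes (10.4% higher and 3.17% lower). Klhl38 did not pass at -1.28 ± 0.44 (0.0621), although every CTx sample was below every xINJ sample, and it passed under either other scaling of the arrays. Groups did not overlap for 5 members, the metallothioneins above (23.6% of tested genes) and Klhl38, Fbxo32 and Bnip3 below (12.2%). Gadd45a overlapped between the muscles (0.06 ± 0.15). Fbxo32 and Bnip3 both lost the call without CTx replicate 3, xINJ replicate 1 or xINJ replicate 2, which left 2 members called in each case. Mature fibre markers gave 0 calls of 13 here, while 7 of 7 macrophage, 4 of 6 fibroblast and 6 of 6 regenerating fibre markers and 9 of 12 denervation genes were higher. The part of these markers in the members' differences was not tested.

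Within DTR+ mice at day 8, 7 members were lower in CTx than in xINJ muscle and none was higher, against 25.3% of tested genes called and 8.51% called lower. For 8 members every CTx sample lay below every xINJ sample, as for 20.5% of tested genes. The DTR+ xINJ samples are those of the genotype comparison above, so the 2 results are not independent. Depp1 stood at 7.40, 7.60 and 7.23 in CTx against 10.91 and 9.75 in xINJ samples, and its log2 fold change of -2.92 ± 0.44 (limma adjusted p = 7.16e-05) was the lowest of all tested genes. Trim63 stood at 9.98, 10.62 and 10.84 against 13.11 and 12.60 (-2.38 ± 0.41, 0.000266). Klhl38 differed by -2.50 ± 0.49, Fbxo32 by -2.35 ± 0.39, Bnip3 by -2.01 ± 0.22 and Gadd45a by -0.87 ± 0.17, with adjusted p from 2.72e-06 to 0.000881. Foxo1 (-0.93 ± 0.28, 0.0205) lost the call without CTx replicate 1 or either xINJ sample. Mt1 (0.10 ± 0.32) and Mt2 (0.36 ± 0.40) did not pass, with 95% intervals of -0.57 to 0.77 and -0.48 to 1.20. Their signs turned on the 2 xINJ samples. Without xINJ replicate 1 Mt1 was -0.49 and Mt2 -0.42, and without xINJ replicate 2 they were 0.69 and 1.14, and none of these passed. On the genes around them, 15 of 31 proteasome subunits and 10 of 19 autophagy genes were lower and none higher, and 8 of 12 denervation genes were higher. With each sample left out in turn these counts ran from 4 to 13, from 5 to 9 and from 8 to 9. Markers of other cells were higher in CTx muscle here too, 7 of 7 for macrophages, 4 of 4 for T cells, 5 of 6 for fibroblasts and 6 of 6 for regenerating fibres, and their part in the members' differences was not tested.

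**Figure D4:**
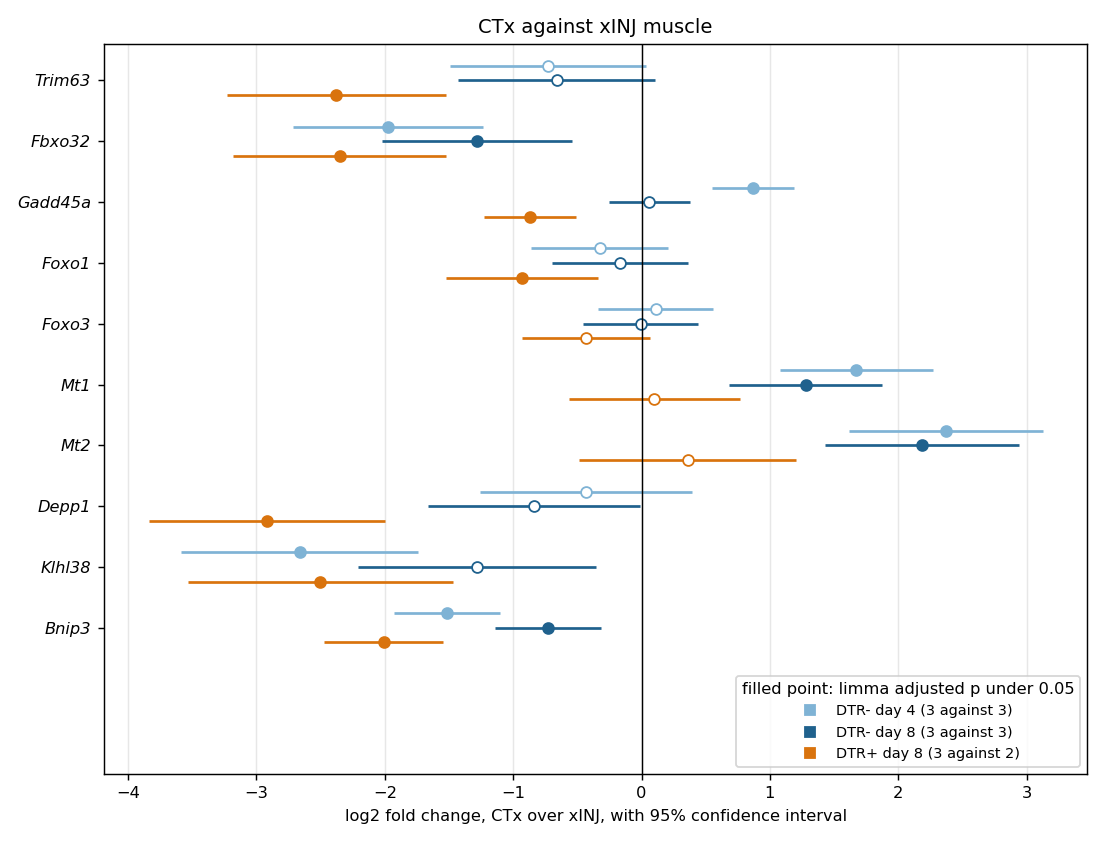
Log2 fold change of CTx over xINJ samples (horizontal axis) with its 95% confidence interval for each gene, in DTR- mice at day 4 (light blue) and day 8 (dark blue) and in DTR+ mice at day 8 (orange); filled points had a limma adjusted p under 0.05. Mt1 and Mt2 lie to the right in DTR- mice and near 0 in DTR+ mice, and Gadd45a lies at 0.87 in DTR- mice at day 4 and at -0.87 in DTR+ mice at day 8.

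Between day 4 and day 8 in CTx muscle of DTR- mice 3 of 10 members rose and none fell, against 29.7% of tested genes called and 11.6% called higher. Klhl38 rose from 6.91, 8.73 and 9.16 to 10.38, 11.10 and 9.87 (2.19 ± 0.44, adjusted p = 0.000927), Fbxo32 by 1.61 ± 0.35 (0.00184) and Bnip3 by 0.94 ± 0.20 (0.00123). Foxo1 (0.68 ± 0.25, 0.0506) and Depp1 (1.00 ± 0.39, 0.0622) also had no overlap between days, which held for 5 members in all and 21.7% of tested genes, but did not pass, and both passed without day 8 replicate 3 (0.0245 and 0.0271). Same-numbered samples deviated together in this comparison, and with a replicate block Foxo1 passed (0.0263). With both doubtful samples left out the 3 calls held at smaller sizes, 1.51 for Klhl38 (adjusted p = 0.00377), 1.33 for Fbxo32 (0.0119) and 0.83 for Bnip3 (0.00891), and Foxo1 (0.56) and Depp1 (0.87) did not pass. Mt1 (-0.09 ± 0.28) and Mt2 (-0.12 ± 0.36) stayed at their day 4 level within error. Mature fibre markers rose for 11 of 13 over the same days and macrophage markers fell for 7 of 7, and their part in the members' changes was not tested. Of 16 glucocorticoid-induced genes 8 rose, Klf9 by 1.76 ± 0.25 and Klf15 by 1.13 ± 0.21 among them.

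In CTx muscle of DTR+ mice 0 of 10 members passed between the days, against 11.1% of tested genes, and 1 had an unadjusted p under 0.05, Foxo1 (0.81 ± 0.28, adjusted p = 0.0769), whose day 8 samples all lay above day 4 (14.5% of tested genes). On its other probe set Bnip3 passed there, at 0.80 ± 0.19 (0.00842) against 0.21 ± 0.22 on the main one. In xINJ muscle of DTR- mice 0 of 10 passed, against 0.0678% of tested genes, and 3 had an unadjusted p under 0.05. The share of all tested genes under that unadjusted p was not counted, here or in DTR+ CTx muscle. All 10 log2 fold changes were above 0, with a median of 0.58 against -0.03 over all tested genes, but with both doubtful samples left out Mt2 went from 0.06 to -0.23 and the other 9 stayed above 0. Macrophage markers had a median of -0.76, with 1 of 7 lower, and fibroblast markers one of -0.71, with 1 of 6 lower, and their part was not tested. Depp1 went from 6.65, 6.84 and 7.32 to 8.73, 8.98 and 7.32 (1.41 ± 0.39, adjusted p = 0.368). Day 8 replicate 3 stayed at the day 4 level. Gadd45a was at 7.87, 7.92 and 8.06 at day 4 and at 8.69, 8.72 and 8.36 at day 8 (0.64 ± 0.15, 0.201), and Fbxo32 at 11.59, 11.08 and 11.17 and then at 12.31, 12.61 and 11.64 (0.91 ± 0.35, 0.805). The days did not overlap for these and Klhl38, 3 of 10 members, against 2.12% of tested genes.

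Within groups the members also varied together. After each group's mean was removed, 44 of the 45 pairs of members had a Pearson correlation above 0 over the 19 samples in groups of 2 or more, with a median of 0.54. The highest were Fbxo32 with Klhl38 (0.84), which are neighbours on chromosome 15, Foxo1 with Foxo3 (0.84) and Trim63 with Fbxo32 (0.78), and the lowest was Mt1 with Bnip3 (-0.04). These samples share the groups and the arrays' scaling, and the values are a description. The same was not worked out for pairs of all tested genes, so varying together is not shown to be particular to the members. Some arrays ran high for most members: DTR- CTx day 4 replicate 3 and DTR+ CTx day 4 replicate 3 were each the highest of their group for 9. The genes most like each member were picked from all tested genes by r over all 21 samples, in which differences between groups take part. With group means removed, r for the picked pairs ran from 0.45 (Mt1 with Ubfd1) to 0.91 (Klhl38 with Fbxo31). Over all 21 samples the gene most like Klhl38 was Fbxo31 (r = 0.98) and that most like Fbxo32 was Klf15 (0.96). Bnip3 was most like Tapt1 (0.97), Depp1 most like Tcp11l2 (0.94), Trim63 most like Mafk (0.93), Gadd45a most like Trafd1 (0.93) and Foxo1 most like Map3k6 (0.92). Mt2 was most like Sik1 (0.95), Mt1 most like Myc (0.91) and Foxo3 most like Ddx56 (0.87). The second genes were Acacb for Klhl38, Lrrc30 for Fbxo32, Echs1 for Bnip3, Map3k6 for Depp1, Psmd11 for Trim63, Spsb1 for Gadd45a, Fkbp5 for Foxo1, Serpina3n for Mt2, Ubfd1 for Mt1 and Plekhm2 for Foxo3, with r of 0.86 to 0.97.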

How the data were processed

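Total RNA of whole muscle was extracted with Trizol and hybridised to Affymetrix whole-transcript arrays, 1 a sample, per the labels. The deposited values are intensities on a linear scale to which the submitters' processing notes attach RMA and Affymetrix Power Tools, with versions not given in the sources used here. RMA as usually run equalizes arrays, which can damp a shift shared by most genes, but array medians still differed, so other scalings were tried. The log2 of each deposited intensity was analysed. No 2 samples were identical.

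Of 24922 probe sets the annotation listed 22824, 21425 with 1 symbol and 1399 with several, and 2098 were unlisted. Single-symbol probe sets stood for 19752 genes, and the one with the highest mean was used for the 921 genes with several. A gene was tested if above the 40th percentile of its array on at least 2 arrays (13278 genes). The 40th percentile is not a limit of detection, and Depp1 lay above it on 16 of 21 arrays and the other members on all 21.

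All 21 samples entered 1 fit (limma 3.58.1, R 4.3.3, default eBayes) with a mean for each of 9 groups, 12 residual and 6.56 prior degrees of freedom and 11 contrasts. Two-sided p-values were adjusted by Benjamini-Hochberg over all tested genes of a contrast and a threshold of 0.05. The fit was tested on simulated data. An exact permutation test of 3 against 3 samples cannot go below 0.1. Values after ± are standard errors. A log2 fold change above 0 means higher in DTR+, in CTx or at day 8.

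The members, the gene lists and the markers were chosen with earlier results of these data known. All members are named, with up to 4 genes per list and contrast with the smallest p among those that passed, and the 2 genes most alike each member by Pearson correlation. Chrna1, Fkbp5 and Mtf1 in xINJ muscle at day 8 were named after their values were seen. Replicate numbers were taken as pairing samples where every same-numbered pair deviated together (r over 0.1 for 3 pairs). This held for the genotypes in CTx muscle at day 8 (0.23 to 0.55) and for the days in DTR- CTx muscle (0.24 to 0.35). Alternatives were 2 other scalings, no filter, other placement of the sample with conflicting times, a replicate block, the mean of probe sets, other variance models, array weights and each replicate left out, with the Bnip3 probe set, the pair of doubtful samples left out and the lists' counts with each replicate left out added after seeing the data. Promoter sequences came from RefSeq (GRCm38.p6), matched by symbol, for 8 of 10 members.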

Additional observations from a re-analysis of the deposited data

Results flagged for a closer look

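The single DTR+ xINJ sample of day 4 entered no test. Its value lay above all 3 DTR- xINJ samples of that day for 5 of the 10 members. The share of all tested genes for which this held was not counted, so the count is not shown to be particular to the members. Fbxo32 read 11.62 on the log2 scale against a highest DTR- value of 11.59, and Klhl38 read 11.16 against 11.13, so both were barely above. Mt1 read 9.80 against 9.71. Gadd45a read 8.45 against 8.06 and Mt2 read 11.77 against 11.37, gaps of 0.39 and 0.40. Trim63 read 10.22 and lay below all 3 DTR- samples (10.27 to 10.69), and Foxo1, Foxo3, Depp1 and Bnip3 lay within their range. The same sample had a mean log2 level of 9.14 over 6 regenerating fibre markers, against 7.70 to 8.69 in the DTR- samples, and of 8.80 over 7 macrophage markers, against 7.72 to 8.12. The part of these levels in its member values was not tested. With 1 sample there is no replicate check, and no group held enough samples to test for outlying values.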

How the results depend on the processing

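With groups of 2 or 3 arrays, only large and steady differences could be called, and signal near the 40th percentile (Depp1 in day 4 CTx muscle) is compressed. Of 1771 alternative values of the members 75 had the other sign, and in 1 of these the value was called in either fit. This was Mt2 between the days in DTR- xINJ muscle, 0.06 as reported and -0.88 with array weights, whose estimation stopped before it converged. For the genotype in xINJ muscle at day 8 array weights called 9 members rather than 7, with Fbxo32 and Foxo3 gained. Other alternatives that kept all samples gave as few as 6 there, with Foxo1 lost. With array weights the members called went from 0 to 1 for the genotype in CTx muscle at day 8. They went from 0 to 6 for the difference of genotype effects between muscles. Between the days they went from 0 to 1 in DTR+ CTx muscle and from 0 to 5 in DTR- xINJ muscle. For the days in DTR+ CTx muscle the count was also 1 rather than 0 with quantile normalization, with the other Bnip3 probe set and with a replicate block, where the numbers do not meet the rule for pairing. Apart from this and the Foxo1 call between the days in DTR- CTx muscle, the replicate block moved no call of a member. Only the groups compared in the fit gave 5 rather than 3 members for the days in DTR- CTx muscle, and the sample with conflicting times placed at day 8 gave 1 rather than 0 for the difference of effects between muscles. With each replicate left out, members called ran from 2 to 7 for the genotype in xINJ muscle at day 8, from 0 to 1 for the difference of effects between muscles, from 2 to 5 between the muscles of DTR- mice at day 8 and from 3 to 5 for the days in DTR- CTx muscle. Over all members and comparisons, 1706 alternative values kept their side of the threshold, those with another sign but no call included, 30 lost a call and 34 gained one.

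Counts over all genes moved more. For the genotype in CTx muscle at day 8 the 489 genes became 1854 with array weights and 265 to 515 with a replicate left out. In xINJ muscle at day 8 the 347 became 1682 with array weights, 602 with the sample of conflicting times at day 8, and 90 to 437 with a replicate left out. For CTx muscle at day 4 the 1 gene became 5 without DTR+ replicate 2. The change of the genotype effect between days gave 78 genes, 50 with centred arrays, 153 with a replicate block, 26 with only its groups, 30 without the doubtful samples and 12 to 223 with a replicate left out. Its difference between muscles gave 31, 57 with the sample moved to day 8, 55 with a replicate block, 460 with array weights and 6 to 31 with a replicate left out. Between the muscles at day 8, 1799 in DTR- mice became 4401 with array weights and 1026 to 1551 with a replicate left out, and 3353 in DTR+ mice became 1833 to 3132. Between the days, 1471 in DTR+ CTx muscle became 841 with only its groups and 624 to 1637 with a replicate left out. In DTR- xINJ muscle 9 became 2879 with array weights, 20 with a replicate block, 2 with quantile normalization, 1 with trend and robust variances, 0 with only its groups, with the sample moved or without the doubtful samples, and 0 to 5 with a replicate left out. Centring each array moved the median of all genes by -0.10 and -0.15 between the muscles of DTR- mice at day 4 and of DTR+ mice at day 8, and the share of calls that were higher went from 56.1% to 44.3% and from 66.3% to 46.1%. At day 8 in DTR- mice that share went from 76.6% to 62.6%, and for the difference of effects between muscles from 45.2% to 30.8%. Quantile normalization gave 44.6%, 53.5% and 61.2% for the 3 muscle comparisons, and 37.6% rather than 25.6% for the days in DTR+ CTx muscle and 0% rather than 11.1% in DTR- xINJ muscle.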
